A study of Mus musculus with 2 samples.

Results

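The genes described here are 7 enzymes and enzyme subunits of homocysteine and methionine metabolism, namely Cbs, Cth, Mtr, Mtrr, Ahcy, Mat2a and Mat2b. They were taken by symbol from a table of 33640 genes, all 7 were present, and each averaged 1 TPM or more over the libraries. TPM is a transcript abundance per unit of transcript length and of library total, so levels of different genes can be compared on it. The set was chosen by the lower TPM of Cbs in the mutant pool, so the values of this same comparison are given as a description and support nothing further.

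The libraries were made from mitral valve tissue of mice aged 5 months. One pool, the control, came from wild-type mice and the other from mice with the genotype Fbn1C1039G/+, which carry 1 copy of a missense allele of the fibrillin-1 gene and model Marfan syndrome. Each pool held tissue of 8 hearts, with males and females mixed, and gave 1 library, so there is no replicate check, no error on any value and no test. The level of Fbn1 was 108 TPM for the control and 126 TPM for the mutant pool, and a missense allele need not alter its mRNA level.

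Methionine is activated to S-adenosylmethionine, the methyl donor of most methyltransferases. After the methyl group has been passed on, the remaining S-adenosylhomocysteine is split to homocysteine. Homocysteine is either methylated back to methionine, with folate and cobalamin, or is committed to cysteine by transsulfuration. In people, loss of cystathionine beta-synthase causes homocystinuria, in which homocysteine accumulates and the skeleton and lens can resemble those of Marfan syndrome.

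Cbs was lower in the mutant pool, Cth was higher, and the other 5 genes differed little. Cbs encodes cystathionine beta-synthase, which joins homocysteine to serine in the first step of transsulfuration. It was at 20.6 TPM in the control pool and 5.16 TPM in the mutant pool, a 3.99-fold lower level. This is a difference of −1.81 when log2(TPM + 1) of the control was taken from that of the mutant pool. All differences below are on this scale, on which the pseudocount of 1 makes differences of low genes smaller. In pooled tissue, fewer cells that express the gene and less RNA per cell cannot be told apart.

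Cbs was the 1 member of 7 that was at least 2-fold lower, and no member was at least 2-fold higher. Over the 17004 genes that averaged 1 TPM or more, 1.72% were at least 2-fold lower and 4.81% at least 2-fold higher. That was 293 lower and 818 higher genes, a split that became 462 and 540 under quantile normalization. Among genes averaging from 5 to under 50 TPM, the range that holds Cbs, 0.952% were at least 2-fold lower. In that range 32 of 9352 genes had a difference as low as that of Cbs or lower.

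**Figure D1:**
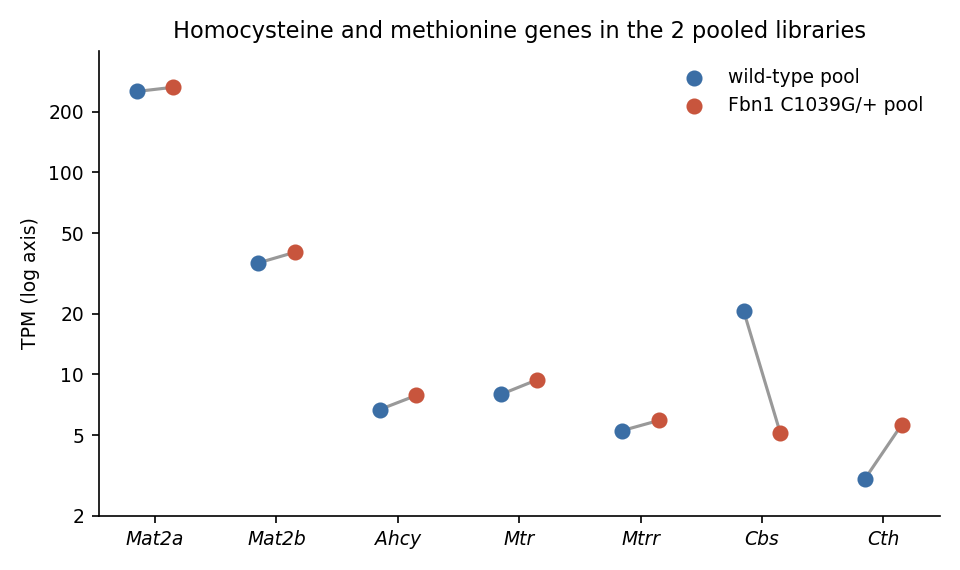
TPM of the 7 genes (log axis) in the control pool (blue) and the Fbn1C1039G/+ pool (red), 1 library each, with a line joining the values of 1 gene. Cbs goes from 20.6 to 5.16 TPM and Cth from 3.05 to 5.63 TPM, while the lines of the other 5 genes are nearly level.

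Cbs lies on chromosome 17 from 31608894 to 31637238 on the minus strand (mm10, ENSMUSG00000024039.15), with 12 annotated transcripts in GENCODE M21, of which 9 are protein coding. The deposited table gives 1 value per gene symbol, so the transcripts cannot be told apart. The stretch just before the start of Cbs is shown because it is the gene that differed, and that of Mat2a because Mat2a is the most abundant member and hardly differed. Both are RefSeq sequence of GRCm38, which is mm10, on the minus strand, printed 5′ to 3′, and end 1 base before the most upstream annotated transcript start. Capitals mark matches on either strand to any of 4 short motifs. The GC box, which Sp-family factors bind, was searched as GGGCGG. The box named for its letters, CCAAT, is bound by NF-Y. The E box was searched as CACGTG and the TATA box as TATAAA.
Cbs, chr17:31637239-31637455: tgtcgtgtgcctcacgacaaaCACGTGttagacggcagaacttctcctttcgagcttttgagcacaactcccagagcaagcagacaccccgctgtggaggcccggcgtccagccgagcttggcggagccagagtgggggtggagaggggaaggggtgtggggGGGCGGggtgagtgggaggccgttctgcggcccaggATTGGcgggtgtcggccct
Mat2a, chr6:72439559-72439806: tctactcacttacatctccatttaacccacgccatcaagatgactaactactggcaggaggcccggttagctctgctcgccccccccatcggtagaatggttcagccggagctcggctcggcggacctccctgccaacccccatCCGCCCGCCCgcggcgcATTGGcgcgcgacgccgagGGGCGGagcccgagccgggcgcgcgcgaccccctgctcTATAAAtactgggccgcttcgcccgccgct

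The 217 bases before Cbs held 1 GC box, 1 CCAAT box and 1 E box, and no TATA box. The 248 bases before Mat2a held 3 GC boxes, of which 2 overlap by 2 bases, with 1 CCAAT box, 1 TATA box and no E box. RefSeq windows of 300 bases, most of them before the start, were matched for 6 of the 7 genes, which leaves out Cth. The window of Mat2b (chromosome 11, 40692633 to 40692932) lies at a downstream start, inside the gene as annotated in GENCODE. GC boxes and CCAAT boxes were in the windows of all 6, and the E box in that of Cbs. Over 32851 windows of that length, 35.7% held a GC box, 37.4% a CCAAT box, 7.15% an E box and 13.6% a TATA box. No window of the 6 genes matched TGATGNAAN, the amino acid response element that ATF4 binds, which was in 3.95% of all windows. These are matches of letters and not measured binding.

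Cth encodes cystathionine gamma-lyase, which follows Cbs and releases cysteine. Its level was 3.05 TPM for the control and 5.63 TPM for the mutant pool, and the difference was 0.71. Among the 4424 genes averaging from 1 to under 5 TPM, 18.5% had a difference of that size or larger, so differences of this size were common at this abundance. Cth lies on chromosome 3 from 157894248 to 157925077 (minus strand, ENSMUSG00000028179.12) and has 1 protein-coding transcript.

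The TPM of Cbs was 6.74 times that of Cth in the control pool and 0.917 times that of Cth in the mutant pool, where the levels were close and, with 1 library, cannot be ranked. A ratio of 2 genes inside 1 library is not altered by a constant factor on that library. Their summed TPM was 23.6 in the control and 10.8 in the mutant pool. The sum for enzymes that return homocysteine to methionine (Mtr, Bhmt and Bhmt2) was 10.2 and 12.5 TPM. Transsulfuration transcripts were thus 2.32 times the remethylation transcripts in the control pool and 0.866 times in the mutant pool. Cbs, by which the set was chosen, held most of the transsulfuration sum in the control pool. These ratios therefore largely restate its lower level and support nothing further.

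Of the remethylation genes, Mtr encodes methionine synthase, the cobalamin enzyme that moves a methyl group from folate to homocysteine. It was at 7.97 and 9.42 TPM in control and mutant pools, a difference of 0.22. Mtrr encodes the reductase that reactivates methionine synthase when its cobalamin has been oxidized, and was at 5.28 and 5.92 TPM, a difference of 0.14. The ratio of Mtr to Mtrr was 1.51 and 1.59. Both genes are on chromosome 13, Mtr from 12182712 to 12258113 and Mtrr from 68560780 to 68582149, on the minus strand. Bhmt and its relative Bhmt2, which encode other homocysteine methyltransferases, mainly of liver and kidney, were low. Bhmt was at 0.735 and 0.913 TPM and Bhmt2 at 1.45 and 2.12 TPM.

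Mat2a encodes the catalytic subunit of the methionine adenosyltransferase of most tissues, which makes S-adenosylmethionine. With 252 TPM in the control and 264 TPM in the mutant pool, it held 76.1% and 78.0% of the summed TPM of the 7 genes. Its difference was 0.07. Mat2b, the regulatory subunit, was at 35.6 and 40.2 TPM, a difference of 0.17, and the ratio of Mat2a to Mat2b was 7.06 and 6.56. Mat1a, the catalytic gene of adult liver, was listed at 0 in both libraries. Mettl16, an RNA methyltransferase known to act on the Mat2a transcript, was at 18.2 and 16.3 TPM. Mat2a lies on chromosome 6 from 72432799 to 72439558 and Mat2b on chromosome 11 from 40679314 to 40695203.

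Ahcy encodes S-adenosylhomocysteine hydrolase, the enzyme that forms homocysteine. It was at 6.70 and 7.87 TPM, a difference of 0.20, and lies on chromosome 2 from 155059310 to 155074497. This value is uncertain, because 78.6% of the stretches of 31 bases in its protein-coding transcripts also occur in transcripts of other genes. The predicted gene Gm4737 alone shares 75.7% of them, and was at 7.55 TPM in the control and 5.32 TPM in the mutant pool. Reads from such stretches can be assigned to either gene. The sum of both was 14.3 and 13.2 TPM, a difference of −0.10, so the direction for Ahcy turns when the TPM of Gm4737 is added to it. The Ahcy-like genes Ahcyl1 (107 and 115 TPM) and Ahcyl2 (27.2 and 34.9 TPM), which encode related proteins with other roles, were more abundant than Ahcy. The methionine cycle list had 4 measured genes outside the 7, namely Ahcyl1, Ahcyl2, Bhmt2 and Mettl16. Of these, 3 were above 0, with a median of 0.22. Ahcyl1, Ahcyl2 and Mettl16 do not encode enzymes of the cycle itself, so this median does not describe the cycle.

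**Figure D2:**
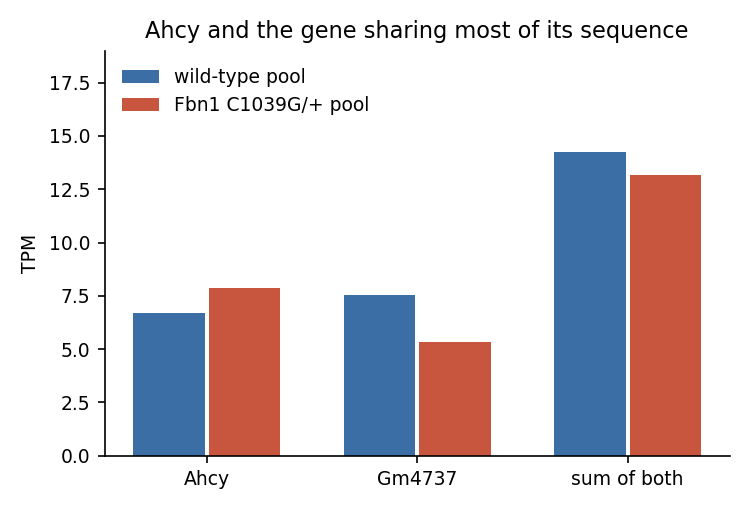
TPM of Ahcy, of Gm4737, which shares 75.7% of the 31-base stretches of Ahcy, and of their sum, in the control pool (blue) and the Fbn1C1039G/+ pool (red), 1 library each. Ahcy is higher and Gm4737 lower in the mutant pool, and the sum goes from 14.3 to 13.2 TPM.

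Sequence sharing was smaller for the other members. It was 17.6% for Mat2a, mostly with Gm9523 (0.0883 and 0.619 TPM), and 6.83% for Cbs, where no single other gene held over 1.05%. It was 1.73% for Mtrr and 0% for Cth, Mtr and Mat2b. For Mat2a the TPM with Gm9523 added was 252 and 264.

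Ordered by level in the control pool, the genes ran Mat2a, Mat2b, Cbs, Mtr, Ahcy, Mtrr and Cth, with the highest 82.4 times the lowest. In the mutant pool the order was Mat2a, Mat2b, Mtr, Ahcy, Mtrr, Cth and Cbs, and the highest was 51.2 times the lowest. Cbs thus went from rank 3 to rank 7, and the other genes kept their order among themselves. The 5 lowest genes of the mutant pool lay between 5.16 and 9.42 TPM, and with 1 library each it cannot be said which of these neighbours differ. The summed TPM of the 7 genes was 331 in the control and 338 in the mutant pool.

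The median difference of the 7 genes was 0.17, beside 0.14 over all 17004 genes. Of the 7, 6 had a difference above 0, beside 64.9% of all genes. That number was 5 with centring on the median gene, which turned Mat2a, 4 under quantile normalization, which turned Mat2a and Mtrr, and 5 with Gm4737 added to Ahcy. Apart from Cbs and Cth, the differences ran from 0.07 to 0.22, near the middle of all genes. The central 95% of genes averaging 5 to 50 TPM ran from −0.68 to 1.13.

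**Figure D3:**
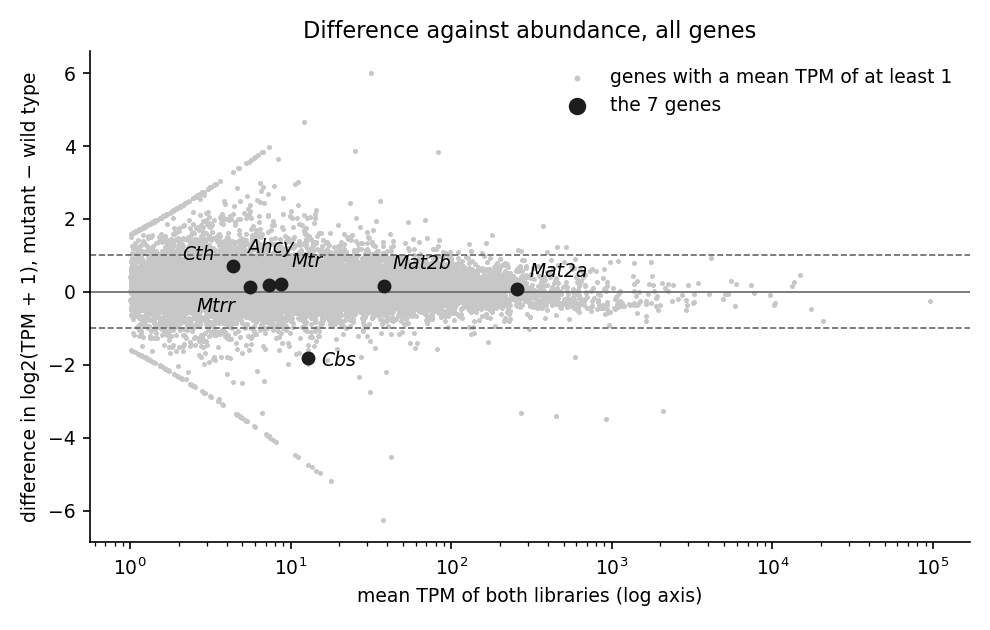
Difference in log2(TPM + 1), mutant − control, against mean TPM (log axis) for 17004 genes (grey) and the 7 genes (black, named); dashed lines mark a 2-fold difference on this scale and the slanting rows of points are genes at 0 in 1 library. Cbs sits at −1.81 below the main cloud, and the other 6 genes lie inside it.

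Of the genes without predicted, Rik or mitochondrial symbols, the 3 with levels nearest to those of Cbs in both libraries were Trbc1 (20.9 and 4.54 TPM), Ppp1r1b (19.6 and 5.84 TPM) and Pla2g5 (17.6 and 4.86 TPM). The measure was the distance in log2(TPM + 1) over 2 libraries, which was 0.16, 0.16 and 0.22.

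The other genes of the pathway were taken in 10 lists by function. Of their 115 symbols without the 7 genes, 113 were in the table and 107 averaged 1 TPM or more. Among these 107, 65 had a difference above 0 and 42 below, beside 64.9% of all genes above 0, with a median of 0.07. At least 2-fold higher were 2 genes and at least 2-fold lower was 1, beside 4.81% and 1.72% of all 17004 genes. The same shares of all genes are the background for the counts of each single list. These lists share the same 2 libraries with the 7 genes and give no independent support. The median over genes averaging 10 TPM or more was 0.11. With that shift taken out 49 of the 107 were above 0, beside 53.5% of all genes, and their median was −0.04. Under quantile normalization 45 of the 107 were above 0, beside 48.4% of all genes, with a median of −0.08. The medians of the glutathione, cobalamin, salvage, choline and supply lists then lay below 0 under both scalings, and those of the methionine cycle, folate and DNA methylation lists were above 0 under both.

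Of 10 further genes that handle cysteine and sulfide 3 were above 0 and 7 below, with a median of −0.05 and none 2-fold different. Cdo1, which oxidizes cysteine towards taurine, was at 51.9 and 44.7 TPM. The mitochondrial sulfide oxidation gene Sqrdl was at 48.0 and 58.1 TPM, the sulfur dioxygenase gene Ethe1 at 10.2 and 8.11 TPM, and the sulfurtransferase gene Tst at 119 and 112 TPM. Fmo1, a flavin monooxygenase, was the most abundant, at 219 and 252 TPM.

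Of 9 genes of glutathione synthesis and cystine uptake 7 were above 0, with a median of 0.09. Gclc, the catalytic subunit of glutamate-cysteine ligase, was at 53.5 and 30.7 TPM, a difference of −0.78. Slc7a11, the cystine importer, was at 5.52 and 10.6 TPM, a difference of 0.83, and glutathione synthetase, Gss, at 14.1 and 23.8 TPM, a difference of 0.72. Single genes of this group therefore differed in opposite directions, each by less than 2-fold on this scale.

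**Figure D4:**
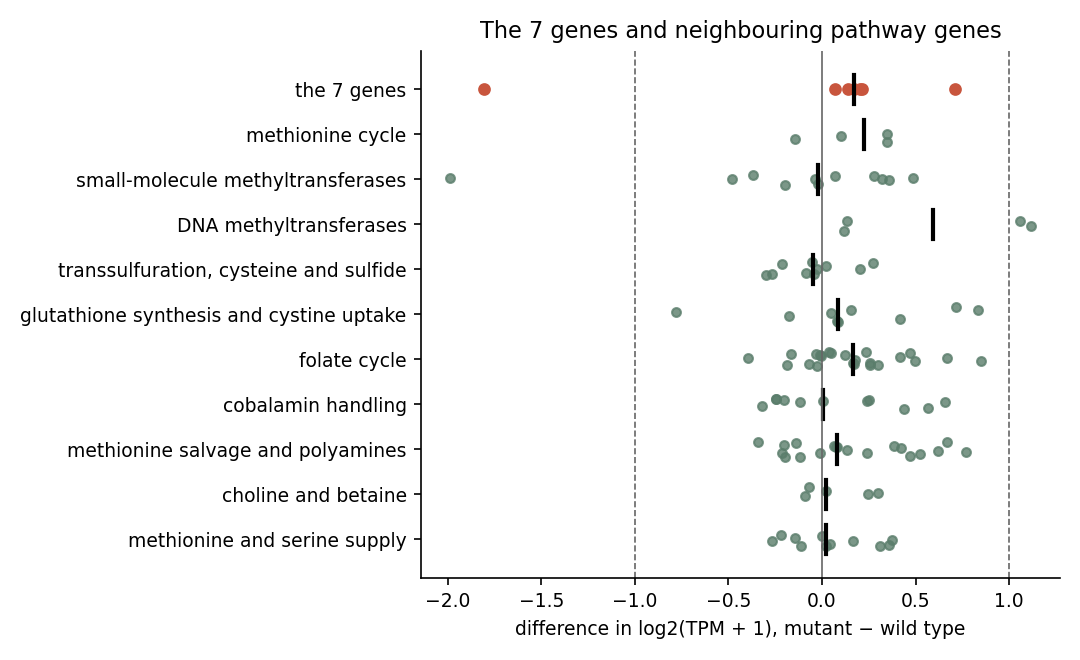
Difference in log2(TPM + 1), mutant − control, of the 7 genes (red) and of the other pathway genes averaging 1 TPM or more (green, 1 point a gene) in 10 lists; black bars are medians and dashed lines mark a 2-fold difference. The points below −1 are Cbs (−1.81) and Inmt (−1.99), and those above 1 are 2 genes of DNA methylation.

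The small-molecule methyltransferase list held genes of enzymes that consume S-adenosylmethionine, including Icmt and Pcmt1, which act on proteins. In this list Inmt was the 1 gene at least 2-fold lower. It encodes indolethylamine N-methyltransferase and was at 15.9 and 3.28 TPM, a difference of −1.99. The other 10 of the list were not 2-fold different. Nnmt, which methylates nicotinamide, was at 18.4 and 19.4 TPM, and Gamt, which makes creatine, at 16.5 and 11.5 TPM. The median of the list was −0.02, with 5 of 11 genes above 0.

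The DNA methylation list had 4 genes, all above 0 as deposited, with a median of 0.60, which was 0.13 over its 3 genes averaging 5 TPM or more. Dnmt3b, a methyltransferase that sets new methylation, was at 5.21 and 11.9 TPM, a difference of 1.06. Uhrf1, which guides Dnmt1 to copied DNA and was singled out after its values were seen, was at 2.73 and 7.09 TPM, a difference of 1.12. The abundant Dnmt1 (55.2 and 60.5 TPM) and Dnmt3a (60.0 and 65.1 TPM) differed by 0.13 and 0.12, and Dnmt3a was at −0.002 under quantile normalization. Neither Dnmt3b (0.88) nor Uhrf1 (0.90) was 2-fold higher under that scaling, and Dnmt3b was at 0.95 after centring.

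Folate genes supply the methyl group that Mtr uses. Of 23 genes 15 were above 0, with a median of 0.17 and none 2-fold different. The mitochondrial enzyme gene Aldh1l2 was at 23.9 and 38.6 TPM, Tyms, thymidylate synthase, at 19.5 and 27.5 TPM, and Fpgs, which adds the glutamate tail that retains folate in cells, at 32.3 and 43.4 TPM. Folr2, a folate receptor of macrophages, was at 33.4 and 36.5 TPM.

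The cobalamin list holds genes that help provide the cofactor of Mtr, and others such as Mmaa, Mmab and Mut of the mitochondrial branch. Of its 11 measured genes 6 were above 0, with a median of 0.003, which is therefore not a value for the Mtr cofactor alone. Mmachc, which processes incoming cobalamin, was listed at 1149 and 1560 TPM, above every other gene of the 10 lists, and 4.91% of its 31-base stretches occur in other genes. Whether all of this value comes from its own transcript cannot be settled from 1 value per gene. Cd320, the receptor for transcobalamin, was at 5.11 and 8.03 TPM, Mmaa, of the mitochondrial branch, at 7.33 and 12.1 TPM, and the carrier Tcn2 at 92.6 and 85.3 TPM.

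In methionine salvage and polyamine metabolism, which recycle the methylthio group of S-adenosylmethionine, 12 of 19 genes were above 0, with a median of 0.08 and none 2-fold different. Sat1, which acetylates polyamines, was at 213 and 327 TPM, Oaz1, an inhibitor of ornithine decarboxylase, at 727 and 631 TPM, and Ada, adenosine deaminase, at 8.72 and 13.0 TPM. Choline and betaine genes had 3 of 5 above 0 and a median of 0.02, with Chdh, choline dehydrogenase, at 9.18 and 11.1 TPM. Genes of methionine and serine supply had 7 of 11 above 0 and a median of 0.02. Among them the transporter genes Slc7a5 (10.4 and 13.1 TPM), Slc3a2 (87.5 and 90.2 TPM) and Slc1a5 (41.0 and 52.8 TPM) differed by less than 2-fold.

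The libraries also differed in transcripts of several cell types, given here as summed TPM of fixed marker lists in control and mutant pools. Valve interstitial markers (18292 and 17561) and endothelial markers (659 and 684) were present in both, none of them 2-fold different. Most of the interstitial sum was Dcn (11409 and 9304 TPM), and of the 10 interstitial markers 6 were above 0 and 4 below. Red blood cell markers were at 6801 and 687, with 4 of 5 at least 2-fold lower. Those 4 were globin genes, and the other, Alas2, differed by −0.23 (27.6 and 23.3 TPM). T cell markers were at 85.3 and 54.9, with 4 of 7 at least 2-fold lower, but Cd3d was higher (19.7 and 26.9 TPM). Melanocyte markers were at 129 and 66.6, with 1 of 5 at least 2-fold lower. Cardiac muscle markers were at 2681 and 2017, with 1 of 10 lower. Neutrophil markers were at 26.9 and 259.7, with 5 of 7 measured at least 2-fold higher and Ly6g listed at 0 in both. Most of the neutrophil sum of the mutant pool was Lcn2 (9.95 TPM in the control and 156 TPM in the mutant pool). Retnlg (1.21 and 1.13 TPM) and Mpo (1.01 and 1.19 TPM) hardly differed. Monocyte markers were at 463 and 746, with 3 of 6 at least 2-fold higher. Most of the monocyte sum was Vcan (443 and 688 TPM), also a proteoglycan of valve matrix, and the other 5 markers summed to 19.8 and 58.1. Macrophage (708 and 804), smooth muscle (399 and 489), Schwann cell (66.4 and 52.8) and adipocyte markers (25.7 and 16.2) had no measured member 2-fold different. Also listed at 0 were Plac8 of the monocyte list in the control pool, Adipoq in the mutant pool, and Lep of adipocytes in both. Liver markers were at 7.64 and 3.77, with 1 of 2 measured at least 2-fold lower, Alb, Apoa1 and Ttr listed at 0 in the control pool and Ttr at 0 in the mutant pool. The part of these cell types in the values of Cbs, Cth and Inmt was not tested.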

How the data were processed

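RNA of 1 pool of 8 hearts per genotype was amplified with the NuGEN Ovation system and made into libraries with Nextera XT, per the labels' protocols. The submitters' processing notes name Trimmomatic, HISAT2, kallisto and mm10, without versions or roles. The deposited values are TPM per gene symbol, per the file headers, summing to 999964 and 999945. TPM keeps no depth, so depth is unknown and no interval was computed.

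Columns were matched to genotypes by name. The difference was log2(TPM + 1), mutant minus wild type (Python 3.11.15, pandas 2.3.3), counted as 2-fold from a size of 1 among genes averaging 1 TPM or more. With 1 library a genotype no test was run. The calculation was tested on simulated data with planted differences, which checks the arithmetic only and bears on no value given here. Genes and lists were chosen with earlier results of these data known. Named were the members, their relatives and enzymes of the same steps (Mat1a, Ahcyl1, Ahcyl2, Bhmt, Bhmt2), Fbn1 and the 3 genes nearest to Cbs. Genes among the 3 most abundant or the 3 most different (averaging 5 TPM or more) of each list were also named. Uhrf1, Gm4737, Gm9523 and the markers were named outside that rule, after values were seen. Some items that the rule takes are left out of the text. Gene models and transcripts came from GENCODE M21. Sqor and Mmut were counted under the older symbols Sqrdl and Mut. Alternatives were pseudocounts of 0.1 and 5, other minimum TPM, centring, quantile normalization, omission of Rik, Gm, globin, mitochondrial and ribosomal protein genes and, added after seeing the data, Gm4737 counted with Ahcy and quantile normalization for ratios.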

Additional observations from a re-analysis of the deposited data

How the results depend on the processing

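A difference, median or ratio was taken as moved when it shifted by 0.2 or more on the log2 scale, since no replicate spread exists. Counts of 2-fold genes were judged by their ratio instead, with a change to 0 taken as moved. Cbs was at least 2-fold lower under every alternative run, with a difference from −1.99 to −1.33, and it was the 1 such member in each. With a pseudocount of 5 the difference was −1.33 for Cbs, 0.40 for Cth and 0.38 for the median of the DNA methylation list, and 0 other pathway genes were 2-fold higher in place of 2. That count was 4 with a pseudocount of 0.1, 1 after centring, 1 with 5 TPM or more and 0 under quantile normalization. Quantile normalization gave 0.48 for Cth, an average of 5 TPM or more gave 0.13 for the DNA methylation median, and adding Gm4737 gave −0.10 for Ahcy. Over all genes, 293 were lower and 818 higher, against 464 and 1264 with a pseudocount of 0.1, 87 and 209 with 5, 462 and 540 under quantile normalization, 278 and 499 without the abundant classes, and 103 and 360 with 5 TPM or more. Of 146 values under alternatives 135 were not moved by these rules, but some of them could not move. Every member averaged 1 TPM or more, so leaving out the filter could not alter their median or counts. Centring took 0.11 from every difference, less than 0.2, so no difference or median could count as moved under it. A change of sign smaller than 0.2 was also not counted as moved. Mat2a at −0.04 after centring and Mtrr at −0.04 under quantile normalization are examples. The cause was not tested. No paired analysis was possible because each genotype had 1 library, and no library could be left out. Low TPM can rest on few reads of amplified RNA, and the depth is unknown.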
